A study of Mus musculus with 13 samples.

Results

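The C-type lectin genes described here were the rows of the fat table and of the tumour table whose symbol starts with Clec, leaving out Clec9a and Clec10a. They numbered 29 of the 22609 genes in each table. The tissues came from mice of the C57BL/6 strain, and the hosts were either labelled KO, for a fat-specific knockout of PD-L1 (the ligand of the T cell receptor PD-1, encoded by Cd274), or WT. Visceral fat was sampled after HFD feeding, with 4 KO libraries and 3 WT libraries. E0771 mammary tumours, a mouse breast cancer line transplanted into the hosts, gave 3 libraries from KO hosts and 3 from WT hosts. The allele, the promoter that drives the deletion, the age of the mice and the length of feeding were not given in the sources used here. The labels do not say whether the replicates of a group are separate animals, and p-values here measure no more than the spread between libraries, which may be technical.

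C-type lectin receptors are membrane proteins of myeloid and other cells that bind sugars, lipids or protein ligands on microbes and on dying cells. Activating members such as Dectin-1 (Clec7a) and Mincle (Clec4e) carry or borrow a tyrosine motif and pass the signal to the adaptor CARD9 and its partners BCL10 and MALT1, which switch on NF-κB. Inhibitory members such as Clec12a and the DCIR receptor Clec4a2 recruit phosphatases through a tyrosine motif of their own. In obese fat, macrophages gather around dying fat cells, and Mincle has been studied there in mice as a sensor of cell debris.

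The symbol rule also gathers genes that are not receptors of myeloid cells. Clec3b encodes the secreted protein tetranectin, Clec11a a secreted growth factor of bone and blood stem cells, Clec14a a protein of the vessel lining, and Clec16a an intracellular regulator of autophagy. Clec2 genes such as Clec2d encode ligands of natural killer cell receptors, and Clec4f and Clec4g are receptors of liver macrophages and of the lining of liver sinusoids. Per kilobase of exon, the most abundant member in fat was Clec3b, at 6631 normalised reads per kilobase in KO and 4681 in WT. In the tumours it stood at 11.3 with KO hosts, against 18.8 with WT hosts, and the most abundant members there were Clec4a1 and Clec2d. Clec2d was next in fat, at 2992 per kilobase in KO and 2746 in WT. The label of myeloid receptors therefore covers part of the set only.

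The 7 fat libraries held 29362788 to 41534662 gene reads, and the 6 tumour libraries 22834259 to 34706555. Members took 34441 to 44532 reads in KO fat and 15248 to 25483 in WT fat, against 13550 to 19588 in tumours of KO hosts and 14513 to 17841 in those of WT hosts. Cd274, the targeted gene, averaged 544 ± 17.6 normalised reads over the 4 libraries labelled KO and 590.2 ± 129 over the 3 WT libraries of fat (SD) (log2 difference -0.10, SE 0.15, adjusted p of limma = 0.66). In the tumours Cd274 averaged 2043 ± 432 with KO hosts and 1584 ± 167 with WT hosts (SD, n = 3 each, edgeR adjusted p = 0.717). This sum over the whole gene in whole tissue does not show whether an exon was lost in fat cells, so each direction rests on the labels. As a check of the labelled tissue, all 5 fat cell markers were read in the fat libraries, and all 5 fell in KO, with summed levels of 124971 to 199200 in KO fat and 410554 to 498275 in WT fat. In whole tissue, fewer cells of a type and less RNA per cell cannot be told apart.

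Of the 29 members, 22 lie on mouse chromosome 6, most of them in clusters. The Dectin-2 and DCIR cluster holds 9 members within 368 kb (122921848 to 123289870, GRCm38), in the order Clec4a1, Clec4a3, Clec4a4, Clec4b1, Clec4a2, Clec4b2, Clec4n, Clec4d and Clec4e. The Dectin-1 and Clr cluster holds 10 members within 810.4 kb (128662385 to 129472779), running from Clec2h to Clec7a. Clec12a lies at chromosome 6, 129342691 to 129365303 on the plus strand, Clec7a at chromosome 6, 129461591 to 129472779 on the minus strand, Clec4d at chromosome 6, 123262111 to 123275265 on the plus strand and Clec4e at chromosome 6, 123281789 to 123289870 on the minus strand. All 29 matched the GENCODE M21 annotation by symbol, and all are protein-coding there except Clec7a, which is listed as a polymorphic pseudogene. Neighbours of the Clec4a and Clec4b subfamilies resemble each other in sequence, and exons of Clec1b overlap those of Clec9a on the same strand, so the split of reads between them is uncertain. Clec4g overlaps the predicted gene Gm16553 on the opposite strand, and whether the counting used strand is not stated in the sources used here.

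The start regions of 4 members are shown because these genes behaved differently in fat: Clec12a, Clec7a and Clec4d were the 3 members with the largest called log2 differences, and Clec4e, the direct neighbour of Clec4d, did not pass. They were chosen after their values were seen. Each is the 250 bases before a transcript start annotated by RefSeq on GRCm38.p6, read along the gene's strand. The RefSeq start of Clec12a, at 129350244, lies inside the gene span given above from GENCODE, so its window lies inside that span too. Capitals mark the letters GAGGAA on either strand (the core of sites of the myeloid factor PU.1, TTCCTC on the other strand), TGANTCA (AP-1) and TTGCNNAA or its reverse complement (C/EBP), and CACGTG (an E-box) was searched as well.
Clec12a, chr6:129349994-129350243, plus strand: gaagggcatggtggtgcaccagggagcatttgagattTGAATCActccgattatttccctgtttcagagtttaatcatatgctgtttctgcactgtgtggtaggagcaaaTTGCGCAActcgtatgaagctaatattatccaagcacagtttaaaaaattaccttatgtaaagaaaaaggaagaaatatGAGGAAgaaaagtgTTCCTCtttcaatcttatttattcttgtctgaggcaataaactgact
Clec7a, chr6:129472780-129473029, minus strand: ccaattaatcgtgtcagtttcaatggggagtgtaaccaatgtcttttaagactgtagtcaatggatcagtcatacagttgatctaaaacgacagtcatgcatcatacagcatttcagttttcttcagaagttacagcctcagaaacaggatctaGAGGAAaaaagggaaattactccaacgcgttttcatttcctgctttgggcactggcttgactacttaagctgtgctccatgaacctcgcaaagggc
Clec4d, chr6:123261857-123262106, plus strand: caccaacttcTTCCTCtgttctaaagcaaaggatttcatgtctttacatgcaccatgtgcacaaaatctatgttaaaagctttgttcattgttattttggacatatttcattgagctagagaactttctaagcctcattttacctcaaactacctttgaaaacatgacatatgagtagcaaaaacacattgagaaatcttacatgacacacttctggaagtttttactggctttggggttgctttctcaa
Clec4e, chr6:123289872-123290121, minus strand: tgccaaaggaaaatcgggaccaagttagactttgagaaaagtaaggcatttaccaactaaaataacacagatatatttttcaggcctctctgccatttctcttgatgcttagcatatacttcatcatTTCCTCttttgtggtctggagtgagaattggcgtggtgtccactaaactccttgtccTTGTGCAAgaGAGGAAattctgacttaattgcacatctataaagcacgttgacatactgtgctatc

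In the Clec12a window the PU.1 letters stood 61 and 47 bases before the start, the AP-1 letters 213 and the C/EBP letters 140 bases before it. The Clec7a window held the PU.1 letters once, 96 bases before the start, and the Clec4d window once, 240 bases before it. In the Clec4e window they stood 123 and 56 bases before the start, beside C/EBP letters at 66. Of the 27 windows of members, 15 held the PU.1 letters (14 of the 24 members with a window), against 23.3% of all 32851 promoter windows of this length. The AP-1 letters were in 5 of the 27 windows against 6.75% of all, the C/EBP letters in 4 against 9.56%, and the E-box letters in 0 against 6.02%. A match of letters is a description and not a site in use, and nothing is read from it here about either factor or gene.

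In visceral fat 7 of the 13 tested members of the Dectin-1, Dectin-2, DCIR and DAP12-coupled groups rose in KO and the other 6 did not pass, none of them falling. Of all 19 members tested, 9 rose (Clec12a, Clec4d, Clec7a, Clec4a2, Clec4b1, Clec11a, Clec4a3, Clec4a1 and Clec3b), 2 fell (Clec14a and Clec2i) and 8 did not pass limma at an adjusted p under 0.05. Over all 14455 genes tested, 34.2% passed, 16.8% of the tested genes being higher in KO and 17.4% lower. Every KO library lay above every WT library for 10 of the 19 members, against 21.6% of all genes tested, and below for 2, against 22.1%. Of these 10, 9 were the members called higher, so the count is not separate support. The other was Clec1b, which met the minimum for testing, 10 or more in 3 libraries, through its KO libraries. Its closest KO and WT libraries held 11 reads each. The median log2 difference was 0.63 over the 19 members and -0.00 over all genes tested. The summed level of the 29 members averaged 39230.5 ± 6839 normalised reads in KO fat (SD, n = 4) and 18134 ± 3321 in WT fat (SD, n = 3), 2.16 times as high in KO. A log2 difference here is that of the group means of log2(value + 1). It need not equal the ratio of the mean values, and it understates changes of low genes.

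**Figure D1:**
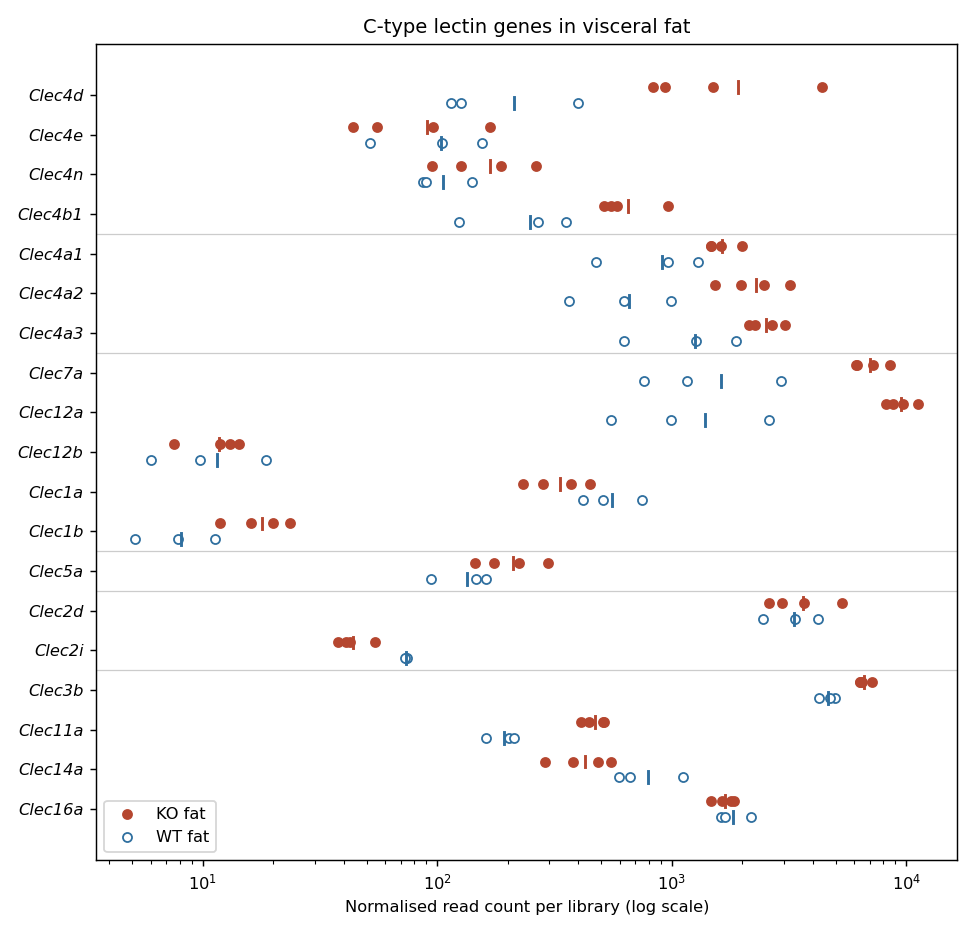
Normalised read count of the 19 tested members in each fat library on a log axis, with filled points for KO (n = 4), open points for WT (n = 3) and a bar at each group's mean. Clec12a, Clec7a and Clec4d show KO points far above all WT points, whereas the points of Clec4e, Clec2d and Clec16a overlap between the groups.

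Among the relatives of Dectin-1, Clec12a and Clec7a rose. Clec12a, an inhibitory receptor for uric acid crystals on myeloid cells, had 11259, 8817, 8172 and 9731 normalised reads in the KO libraries 1 to 4, and 2608, 991 and 554 in the WT libraries of columns 1, 3 and 4. Every KO library was far above every WT library, and the WT libraries themselves spread 4.71-fold, that of column 4 being lowest. The KO mean was 9495 ± 1339 (SD, n = 4) and the WT mean 1384 ± 1082 (SD, n = 3), with a log2 difference of 3.06 (SE 0.44, adjusted p of limma = 0.00195), or 8.36-fold with a 95% confidence interval of 4.18 to 16.7. Without WT column 1 the difference was 3.67, and over all alternatives it ran 2.55 to 3.67.

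Clec7a, or Dectin-1, the receptor for fungal beta-glucan, had 8501, 6160.0, 6123 and 7213 normalised reads in KO fat and 2927, 1166 and 759 in WT fat. The groups did not overlap, and WT column 4 was again lowest. The means of 6999 ± 1121 in KO and 1617 ± 1153 in WT gave a log2 difference of 2.34 (SE 0.39, adjusted p of limma = 0.0033), a fold of 5.05 with an interval of 2.71 to 9.40. The exact permutation test over 35 relabellings gave p = 0.0286, two-sided, for Clec12a and for Clec7a, the smallest value that 4 against 3 libraries allow. The other relatives did not pass. Clec1a, a receptor of endothelial and myeloid cells for fungal melanin, had 232, 283, 448 and 372 in KO fat and 508, 749 and 417 in WT fat, with a log2 difference of -0.74 (SE 0.27, adjusted p of limma = 0.0656). KO library 3 lay above WT column 4, so the groups overlapped. Clec1b, or CLEC-2, the podoplanin receptor of platelets, had 19.9, 11.9, 23.6 and 16.1 in KO fat and 5.16, 7.83 and 11.3 in WT fat, with a log2 difference of 1.07 (SE 0.42, adjusted p of limma = 0.0793). All its KO libraries lay above the WT libraries, with the closest pair less than 1 normalised read apart. Clec12b, another inhibitory receptor, stayed at 7.55 to 14.4 in KO fat and 6.02 to 18.6 in WT fat, with a log2 difference of 0.12 (SE 0.47, adjusted p of limma = 0.863).

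The Dectin-2 cluster, whose receptors signal through the Fc receptor gamma chain, split within itself. Clec4d, or MCL, a partner of Mincle, had 4387, 1503, 832 and 939 normalised reads in KO fat and 400.0, 126 and 114 in WT fat. KO library 1 was the highest by far, yet the lowest KO library was still above the highest WT library. The means were 1915 ± 1674 in KO and 214 ± 162 in WT, with a log2 difference of 3.06 (SE 0.63, adjusted p of limma = 0.00729), or 8.35-fold with an interval of 3.09 to 22.5. KO library 1 also had the highest macrophage and neutrophil marker sums in fat, while S100a9, a defining neutrophil gene, stood at 64.0, 208, 19.1 and 19.1 in the KO libraries, highest in KO library 2, and 20.6, 14.7 and 10.3 in the WT libraries. Of the 3 neutrophil markers tested in fat, S100a8 and S100a9 had log2 differences of 0.66 and 1.63. Retnlg went the other way at -1.23, and none of the 3 passed. Among the markers too low to test, Elane was lower in KO fat, with means of 2.71 in KO and 15.3 in WT. Mpo and Cxcr2 were higher, with means of 3.39 and 22.6 in KO and 1.19 and 4.96 in WT. The part of the macrophage and neutrophil markers in the value of Clec4d was not tested. Without KO library 1 the difference was 2.55 (adjusted p of limma = 0.0107, and 0.00386 to 0.0342 over all alternatives). Clec4b1, known from dendritic cells in mice, rose too, with 965, 583, 512 and 550.2 in KO fat and 353, 268 and 124 in WT fat. The groups did not overlap, and the log2 difference of 1.47 (SE 0.36, adjusted p of limma = 0.0154) was smaller than that of Clec4d.

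The other tested members of this cluster, Clec4e and Clec4n, did not pass. Clec4e, or Mincle, had 96.0, 167, 43.6 and 55.4 normalised reads in KO fat and 156, 105 and 51.6 in WT fat, with both groups spanning about the same range. Its log2 difference of -0.25 (SE 0.52, adjusted p of limma = 0.736) corresponds to a fold of 0.838 with an interval of 0.369 to 1.91, whose upper end lies below the lower end of the Clec4d interval. Clec4n, or Dectin-2, the receptor for fungal mannan, had 264, 188, 95.3 and 126 in KO fat and 141, 87.1 and 89.7 in WT fat. KO libraries 3 and 4 lay within the WT range and libraries 1 and 2 above it, with a log2 difference of 0.59 (SE 0.36, adjusted p of limma = 0.231) and a fold interval of 0.854 to 2.66. Per kilobase of exon, Clec4d stood at 1198 in KO and 134 in WT, Clec4n at 118 in KO and 74.6 in WT, and Clec4e at 18.2 in KO and 20.9 in WT. Clec4b2 stayed at or under 3.91 normalised reads in every fat library and was not tested.

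All 3 tested members of the DCIR family rose. Clec4a2, or DCIR1, an inhibitory receptor, had 3200.1, 2479, 1534 and 1969 normalised reads in KO fat and 988, 626 and 364 in WT fat, with a log2 difference of 1.86 (SE 0.35, adjusted p of limma = 0.00507). Clec4a3 had 3033, 2672, 2145 and 2277 in KO fat and 1875, 1273 and 626 in WT fat, with a log2 difference of 1.13 (SE 0.33, adjusted p of limma = 0.0281), a call lost without KO 1, KO 2, KO 4 or WT column 3 (adjusted p of limma up to 0.0695). Clec4a1 had 2002, 1621, 1474 and 1466 in KO fat and 1292, 968 and 476 in WT fat, with a log2 difference of 0.95 (SE 0.30, adjusted p of limma = 0.0415). For all 3 genes no KO library overlapped the WT libraries, but the gaps of Clec4a1 and Clec4a3 to WT column 1 were small beside the spread within WT. Clec4a1 did not pass edgeR's quasi-likelihood test on the recovered reads (adjusted p = 0.0553, and 0.011 to 0.0926 over all alternatives) and lost its call without any KO library, WT column 3 or WT column 4. By edgeR on recovered reads 16.3% of all genes were higher in KO and 17.6% lower. Clec4a4 was at 8.17 to 16.1 in KO fat and 3.91 to 6.88 in WT fat and stayed under the minimum for testing, 3 libraries with a value of 10 or above.

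Clec5a, a receptor of monocytes, macrophages and neutrophils that couples to the adaptor DAP12, had 298, 222, 144 and 174 normalised reads in KO fat and 161, 146 and 93.8 in WT fat. The groups overlapped, with a log2 difference of 0.63 (SE 0.29, adjusted p of limma = 0.128) and a fold interval of 0.975 to 2.46. Of the Clr ligands of natural killer receptors, Clec2d, which binds NKR-P1 receptors, had 5297, 3654, 2612 and 2956 in KO fat and 2439.7, 3353 and 4199.7 in WT fat. KO libraries 3 and 4 and WT column 1 were the low ones, and the log2 difference of 0.10 (SE 0.27, adjusted p of limma = 0.789) was smaller than its standard error. Clec2i fell, with 40.8, 37.8, 54.5 and 42.3 in KO fat and 74.0, 74.3 and 73.2 in WT fat, a log2 difference of -0.75 (SE 0.23, adjusted p of limma = 0.0322). The WT libraries were within about 1 normalised read of each other, from 86, 76 and 71 reads before scaling, and all above the KO libraries. The call was lost without any single library other than KO 3, with adjusted p of limma up to 0.102. Clec2e, Clec2g and Clec2l were not tested, at 0 to 30.9 in all fat libraries, and Clec2h was at 0 in each.

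Among the remaining members, secreted and endothelial products moved in opposite directions. Clec11a had 512, 444, 412 and 508 normalised reads in KO fat and 202, 213 and 161 in WT fat. The libraries of each group lay close together, every KO library was above every WT library, and the log2 difference of 1.29 (SE 0.16, adjusted p of limma = 0.00132) had the smallest adjusted p of the set. Clec3b had 7152, 6347, 6485 and 6329 in KO fat and 4964, 4252 and 4716 in WT fat, again without overlap, with a log2 difference of 0.50 (SE 0.11, adjusted p of limma = 0.00901), a call lost without WT column 3 (adjusted p of limma = 0.0549, the highest over the alternatives). Clec14a, the endothelial receptor, was lower, with 379, 289, 483 and 553 in KO fat and 598, 666 and 1113 in WT fat, a log2 difference of -0.88 (SE 0.28, adjusted p of limma = 0.0394). KO library 4 was the highest of its group and still below the lowest WT library, and the call was lost without KO 1, KO 2, WT column 3 or WT column 4. Clec16a did not pass, at 1468 to 1845 in KO fat and 1626 to 2174 in WT fat, with a log2 difference of -0.11 (SE 0.14, adjusted p of limma = 0.56). Clec3a, Clec18a, Clec4f and Clec4g stayed at 0 to 12.9 normalised reads and were not tested.

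Markers of several cell types also differed between the fat libraries, and their part in the results was not tested. Over all genes tested 16.8% rose and 17.4% fell. All 6 endothelial markers fell in KO fat, where they summed to 18529 to 31014, against 43328 to 55066 in WT fat. Of the members known from endothelium, Clec14a fell and Clec1a did not pass. Of 4 fibroblast markers 2 rose and none fell, with sums of 150674 to 185093 in KO fat and 81899 to 108339 in WT fat, beside Clec11a and Clec3b. Of 4 tested platelet markers, Pf4 and Itga2b rose, while Ppbp and Gp1bb, with log2 differences of -0.61 and -0.13, did not pass. Gp9 was too low to test, at a mean of 2.83 in KO fat and 7.17 in WT fat. The 5 markers summed to 2067 to 3593 in KO fat and 1159 to 1354 in WT fat, of which Pf4 alone made up a mean of 2487 in KO and 1159.5 in WT, and Clec1b of platelets did not pass. None of 5 natural killer cell markers, 4 B cell markers, 3 monocyte markers or 3 tested neutrophil markers passed in fat. The neutrophil markers summed to 302.3 to 641 in KO fat and 164 to 413 in WT fat. Of 6 dendritic cell markers none rose and 3 fell, with sums of 731.4 to 810.2 in KO fat and 1248 to 1569 in WT fat.

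**Figure D2:**
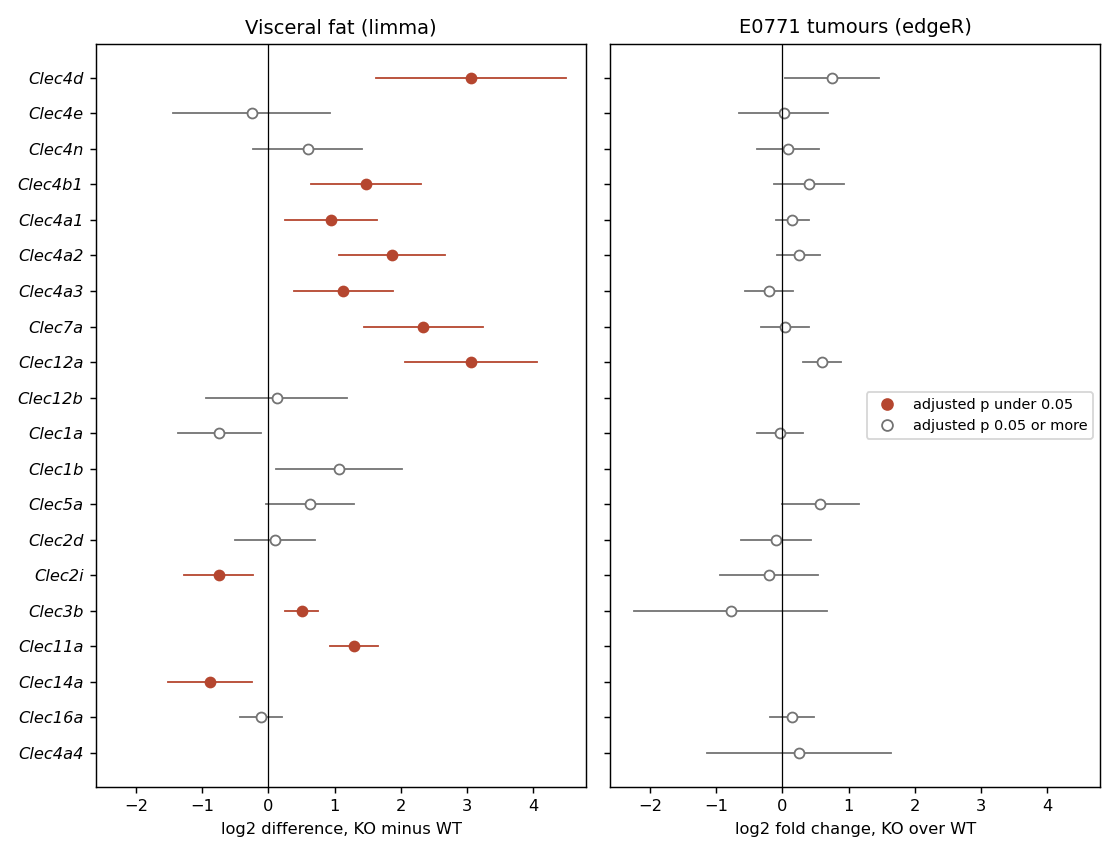
Log2 difference between KO and WT for each tested member, in fat by limma (left) and in the tumours by edgeR (right), with bars for 95% confidence intervals and filled points for an adjusted p under 0.05. In fat 9 members lie to the right and 2 to the left with a filled point; in the tumours no point is filled, and a gene without a point was not tested in that tissue.

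The make-up of the set differed between the groups. Clec12a took 22.9%, 23.7%, 24.4% and 26.2% of the summed normalised reads of the 29 members in the KO libraries, against 11.9%, 5.91% and 3.52% in the WT libraries. Clec7a averaged 17.9% ± 1.24 over the KO libraries and 8.38% ± 4.44 over the WT libraries (SD, n = 4 and 3), and Clec4d 4.50% ± 3.04 in KO and 1.10% ± 0.626 in WT. The share of Clec3b was 17.0% ± 1.97 in KO and 26.0% ± 3.72 in WT, although its level rose, and that of Clec2d 9.09% ± 1.45 in KO and 19.3% ± 7.82 in WT. The share of the Clec4a genes together was 16.5% ± 1.35 in KO and 15.2% ± 5.11 in WT, a difference smaller than the spread among the WT libraries. The shares of Clec12a and Clec7a varied less among the KO libraries than among the WT libraries, where both were highest in column 1 and lowest in column 4. The share of Clec4d varied more among the KO libraries, with 8.92% in KO library 1. Shares of a sum depend on each other, so they were described and not tested.

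**Figure D3:**
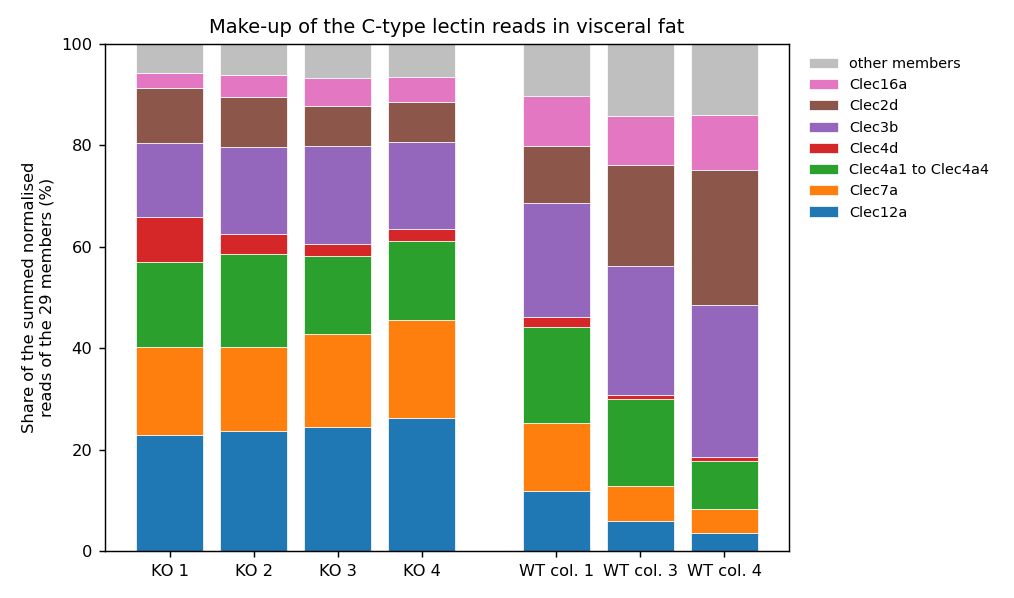
Share of the summed normalised reads of the 29 members taken by the larger members in each fat library, in percent, with KO libraries left of WT libraries (numbered by their column). The Clec12a block takes 22.9% to 26.2% in the KO libraries and at most 11.9% in the WT libraries, and the Clec3b and Clec2d blocks are wider in WT.

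Most macrophage markers rose in the same libraries, and the members were therefore also set against them. Of 8 macrophage markers 6 rose in KO fat and none fell. Mertk and Cd163 did not pass, at log2 differences of 0.61 and -0.69 (adjusted p of limma = 0.0832 and 0.068). Cd163 averaged 2285 in KO fat and 3798 in WT fat. The summed level of the 8 markers was 176945 to 269968 in KO fat and 38796 to 103364 in WT fat, lowest in WT column 4. Their part in the levels of the members was not tested. Relative to this sum, 2 of 19 members lay higher in every KO library than in every WT library, where the same held for 1.21% of all genes tested, and 11 lay lower in every KO library, where the same held for 84.5%. The 2 higher ones were Clec12a and Clec4d, both with a difference in log2 ratio of 1.30. Clec12a had log2 ratios of -4.58, -4.65, -4.44 and -4.40 in KO fat and -5.31, -6.01 and -6.13 in WT fat. Clec4d had -5.94, -7.21, -7.73 and -7.77 in KO fat and -8.01, -8.98 and -8.41 in WT fat, with KO library 1 standing well above the others. Clec7a was 0.57 higher on average, but its lowest KO library fell just under its highest WT library. Clec4a2 and Clec4b1 kept close to the marker sum, with differences of 0.10 and -0.29 and overlapping groups. Clec4a1 and Clec4a3 were lower against it, with differences of -0.82 and -0.63, as were Clec4e at -2.02, Clec4n at -1.17 and Clec5a at -1.13, each without overlap. Lyz2 alone made up 43.0% to 57.0% of the marker sum, so the ratio leans on that gene.

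**Figure D4:**
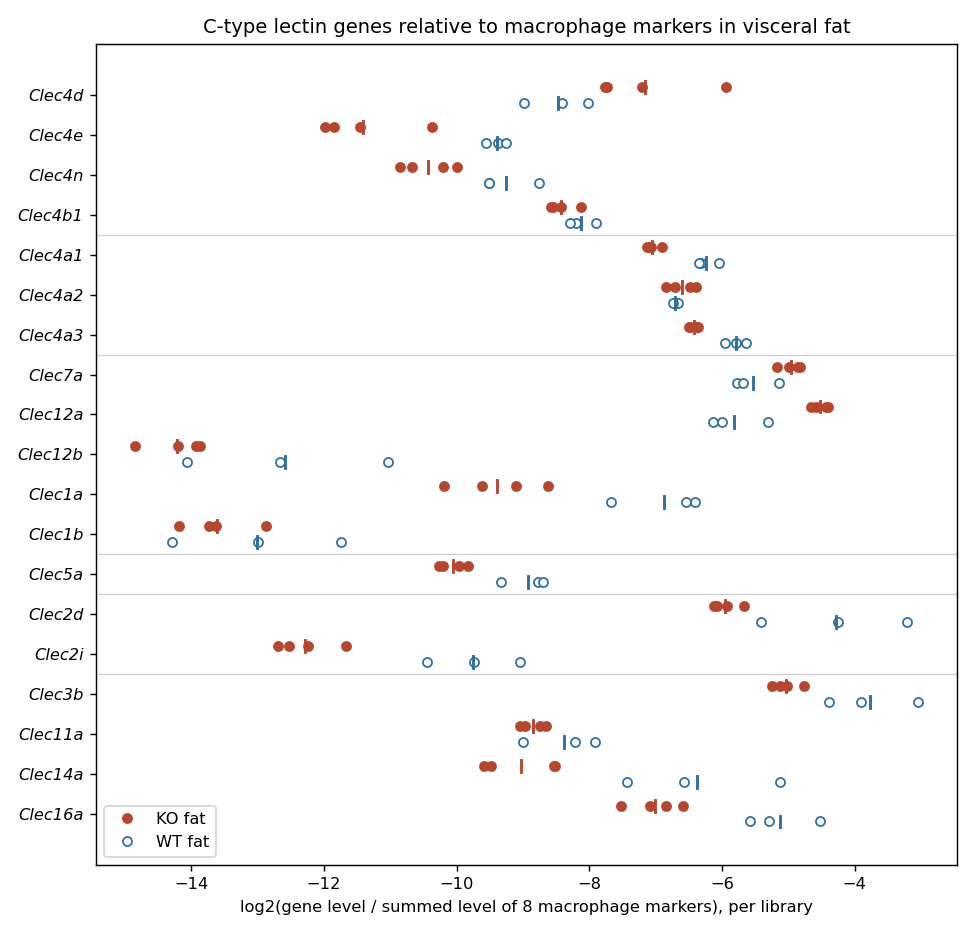
Log2 of each tested member's level over the summed level of 8 macrophage markers in the same fat library, filled for KO (n = 4) and open for WT (n = 3), with a bar at each group's mean. For Clec12a and Clec4d the KO points lie right of all WT points, and for Clec4e, Clec4n, Clec5a, Clec4a1 and Clec4a3 left of them.

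Of the genes through which these receptors signal, 30 were measured and tested in fat, of which 18 rose, 2 fell (Ptpn11 among them) and 10 did not pass, where 16.8% of all genes tested rose and 17.4% fell, with a median log2 difference of 1.11. Fcer1g, the Fc receptor gamma chain used by the Dectin-2 cluster, ranged over 7134 to 10966 normalised reads in KO fat and 1069 to 3906 in WT fat (log2 difference 2.09, SE 0.38, adjusted p of limma = 0.00443). Tyrobp, the adaptor DAP12 used by Clec5a, ranged over 13771 to 28496 normalised reads in KO fat and 2074 to 6625 in WT fat (log2 difference 2.44, SE 0.39, adjusted p of limma = 0.00275). Both adaptors stood far higher in every KO library than in any WT library. Card9, the adaptor downstream of the activating receptors, ranged over 597 to 917 normalised reads in KO fat and 159 to 274 in WT fat (log2 difference 1.90, SE 0.23, adjusted p of limma = 0.00125). Bcl10, its partner, ranged over 1319 to 2092 normalised reads in KO fat and 839 to 1181 in WT fat (log2 difference 0.65, SE 0.19, adjusted p of limma = 0.0277). Malt1, the protease of the same complex, did not pass, with a log2 difference of -0.27 (SE 0.17, adjusted p of limma = 0.26). Plcg2, a phospholipase used by Dectin-1, ranged over 1823 to 2297 normalised reads in KO fat and 574 to 1726 in WT fat (log2 difference 0.97, SE 0.32, adjusted p of limma = 0.0443). Ptpn6, a phosphatase recruited by inhibitory receptors, ranged over 5447 to 5624 normalised reads in KO fat and 698 to 2934 in WT fat (log2 difference 1.94, SE 0.39, adjusted p of limma = 0.00708).

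Genes for products known to follow these receptors, and other lectins, were counted against the same shares of all genes, 16.8% higher and 17.4% lower. Of 8 products tested in fat, Il10, Tnf and Cxcl2 rose, with log2 differences of 2.46, 1.48 and 1.32, none fell, and 5, among them Il1b and Il6, did not pass. Il10 had 55.4 to 114 normalised reads in KO fat and 5.16 to 23.2 in WT fat. Of 15 other C-type lectins of myeloid cells tested, 3 were higher (Mrc1, Olr1 and Colec12), a share near that of all genes, and 8 lower (the 7 Cd209 genes and Mgl2). Mrc1, the mannose receptor, had 21388 to 35466 in KO fat and 5831 to 16873 in WT fat (log2 difference 1.29, adjusted p of limma = 0.022). Mgl2, a galactose-binding lectin of macrophages and dendritic cells, had 461 to 632 in KO fat and 1473 to 4165 in WT fat (log2 difference -2.30, adjusted p of limma = 0.00185). Cd209a, a DC-SIGN relative, had 109.9 to 185 in KO fat and 434 to 773 in WT fat (log2 difference -1.86, adjusted p of limma = 0.00177). Of 9 tested partners and ligands of the members, Anxa1 rose (log2 difference 0.97, adjusted p of limma = 0.0301) and the others did not pass.

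In the E0771 tumours, called KO-host or WT-host tumours after the label of the host, no member passed. Of 16 members tested with edgeR's quasi-likelihood test, 0 had an adjusted p under 0.05, as for all 13109 genes tested (0%). At an unadjusted p under 0.05, 2 members were higher in KO-host tumours (Clec12a and Clec4d) and 0 lower, against 3.79% and 3.11% of all genes tested, or 6.9% in either direction. Every KO library lay above every WT library for 2 members (Clec12a and Clec4b1), against 5.68% of all genes, and below for 0, against 4.93%. The log2 fold change was above 0 for 11 of the 16, with a median of 0.12 over the members and 0.00 over all genes. The summed level of the 29 members averaged 17288 ± 2553 in KO-host tumours and 15717 ± 1938 in WT-host tumours (SD, n = 3 each), 1.10 times as high in KO. Whether an effect differed between fat and tumours was not tested, since the tables were normalised separately.

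Clec12a had 2557, 2569 and 2136 normalised reads in KO-host tumours and 1633, 1422 and 1742 in WT-host tumours. The lowest KO library was above the highest WT library, and the libraries of each group lay close together, with means of 2421 ± 246 in KO-host tumours and 1599 ± 163 in WT-host tumours (SD, n = 3 each). The log2 fold change was 0.60 (SE 0.13), or 1.51-fold with a 95% interval of 1.24 to 1.85, at an unadjusted p of 0.000774 and an adjusted p of edgeR of 0.354. The exact permutation p was 0.1, two-sided, the smallest that 3 against 3 libraries allow. DESeq2 called Clec12a as its single member (adjusted p = 0.0178, and up to 0.9998 over the other alternatives), where it called 0.378% of 12427 genes higher in KO-host tumours and 0.0966% lower. Clec4b1 had 116, 119.8 and 116 normalised reads in KO-host tumours and 95.5, 89.7 and 81.8 in WT-host tumours. No libraries overlapped, but the counts were low and the log2 fold change of 0.40 (0.24 SE, edgeR adjusted p = 0.796) did not pass.

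Clec4d had 733, 1449 and 544 normalised reads in KO-host tumours and 638, 629 and 358 in WT-host tumours. KO library 2 was far above all others and KO library 3 lay within the WT range, with a log2 fold change of 0.74 (SE 0.32, unadjusted p of edgeR = 0.0415, adjusted p = 0.712). Without KO library 2 the log2 fold change was 0.24. Clec5a had 309, 529 and 273 normalised reads in KO-host tumours and 318, 219 and 210.1 in WT-host tumours. The same KO library was the highest, with a log2 fold change of 0.57 (0.27 SE, edgeR adjusted p = 0.73). Clec4e had 770.6, 1663 and 848 normalised reads in KO-host tumours and 1269.7, 1312 and 654 in WT-host tumours, with a log2 fold change of 0.02 (0.31 SE, edgeR adjusted p = 0.996). Clec4n had 856, 1153 and 749.9 normalised reads in KO-host tumours and 1094, 876 and 623 in WT-host tumours, with a log2 fold change of 0.09 (0.21 SE, edgeR adjusted p = 0.949). Both genes were highest in KO library 2 and lowest in WT library 3, and their groups overlapped.

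KO library 2 also held the most neutrophil marker RNA. The 6 measured neutrophil markers summed to 80.1, 3048 and 97.7 normalised reads in KO-host tumours and 619.6, 586 and 249 in WT-host tumours, with Elane at 0 in each library. S100a9 stood at 22.8, 1883 and 31.4 in KO-host tumours and 337, 299 and 103 in WT-host tumours. Of the 4 tested neutrophil markers, 3 had a log2 fold change above 0. The other, Retnlg, went the opposite way at -0.95, with 6.74 to 84.1 in KO-host tumours and 40.0 to 115 in WT-host tumours. The same library had the highest natural killer marker sum, 5813, against 3595 to 4555 in the other 5 libraries. Of the 16 tested members 8 were highest in it (Clec4d, Clec4e, Clec4n, Clec5a, Clec12a, Clec4a1, Clec4a2 and Clec4b1). The part of these marker sums in the values was not tested. None of the tested markers of dendritic cells (6), neutrophils (4), monocytes (3), natural killer cells (5), B cells (4), platelets (2), endothelium (5), fat cells (1) and fibroblasts (4) passed in the tumours. The macrophage marker sum did not separate the hosts, at 40381 to 54530 in KO-host tumours and 40838 to 51588 in WT-host tumours, and none of its 7 tested markers passed. Relative to that sum, Clec12a, Clec4b1 and Clec4d lay higher in every KO library than in every WT library, where this held for 1.97% of all genes, and no member lay lower throughout, where this held for 2.49%. The closest log2 ratios were -4.41 and -4.55 for Clec12a and -8.87 and -8.96 for Clec4b1, KO library 1 against WT library 3. For Clec4d, KO libraries 1 to 3 were at -6.22, -5.05 and -6.21, and WT libraries 1 to 3 at -6.34, -6.33 and -6.83.

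The other members of the tumours showed overlapping groups. Clec7a had 3314, 3312 and 2354 normalised reads in KO-host tumours and 2659, 3498 and 2556 in WT-host tumours, with a log2 fold change of 0.04 (0.17 SE, edgeR adjusted p = 0.967) and a fold interval of 0.801 to 1.33. Clec4a1 had 2602, 2730.5 and 2502 normalised reads in KO-host tumours and 2533, 2284 and 2241 in WT-host tumours, with a log2 fold change of 0.15 (0.11 SE, edgeR adjusted p = 0.828). Clec4a2 had 868, 1075 and 990.1 normalised reads in KO-host tumours and 890.5, 886 and 698 in WT-host tumours, with a log2 fold change of 0.24 (0.15 SE, edgeR adjusted p = 0.796). Clec4a3 leaned the other way without passing: it had 1295, 1863 and 1585 in KO-host tumours and 2006, 1944 and 1509 in WT-host tumours, with a log2 fold change of -0.20 (0.16 SE, edgeR adjusted p = 0.841). Clec1a had 786, 591 and 790.3 in KO-host tumours and 836, 683 and 717 in WT-host tumours, with a log2 fold change of -0.04. Clec2d had 1458, 2285 and 1495 in KO-host tumours and 1851, 2512 and 1239 in WT-host tumours, with a log2 fold change of -0.10. Normalised reads of Clec2i were 43.0, 53.5 and 60.6 in KO-host tumours and 51.2, 71.6 and 57.6 in WT-host tumours. Clec16a and Clec2i, at log2 fold changes of 0.15 and -0.20, and the low Clec3b and Clec4a4, at -0.78 and 0.25, had adjusted p of edgeR between 0.855 and 0.949. The 13 members left out of the test (Clec11a, Clec12b, Clec14a, Clec18a, Clec1b, Clec2e, Clec2g, Clec2h, Clec2l, Clec3a, Clec4b2, Clec4f and Clec4g) stayed at 0 to 23.6 normalised reads in each tumour library.

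**Figure D5:**
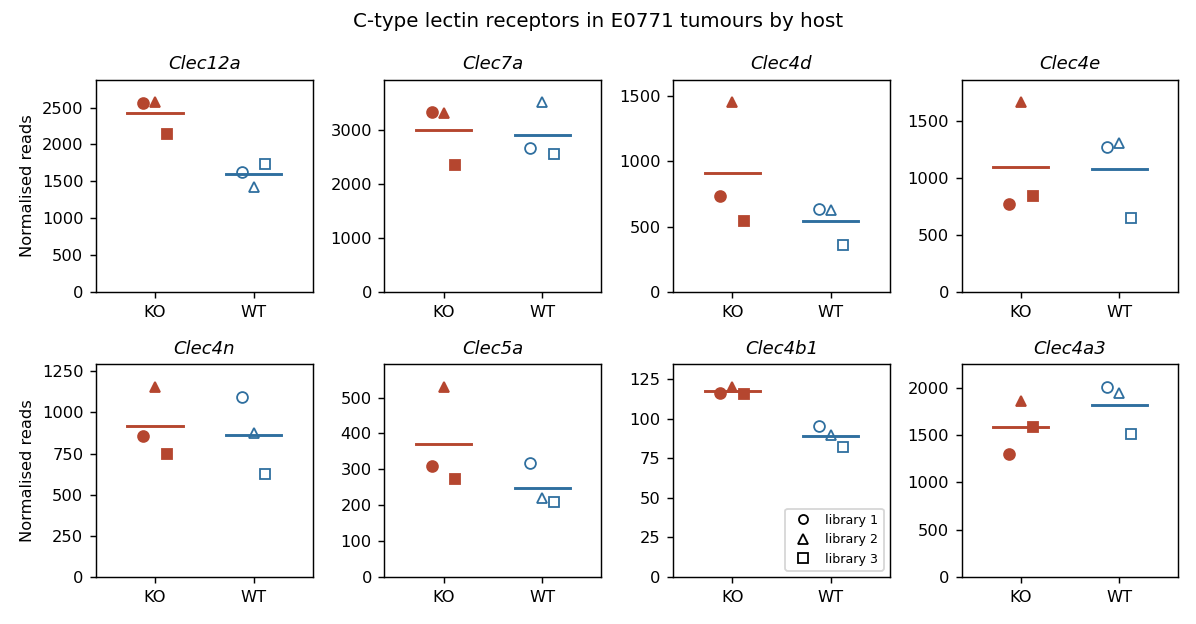
Normalised reads of 8 members in the E0771 tumours, with filled points for KO hosts and open points for WT hosts (n = 3 each), a line at each mean and a point shape for each library number. Clec12a and Clec4b1 separate the hosts, while library 2 of the KO hosts is the highest point of Clec4d, Clec4e, Clec4n and Clec5a.

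The lists of partner genes showed no call in the tumours by edgeR. None of 30 signalling genes, 10 tested products, 11 tested other lectins or 9 tested partners and ligands passed. The median log2 fold change of the signalling genes was 0.10. At an unadjusted p of edgeR under 0.05, 2 signalling genes, 1 product and 2 partners or ligands were higher, and 1 other lectin was lower. Over all genes tested, 3.79% were higher and 3.11% lower at that threshold. Fcer1g had 5998 to 7809 normalised reads in KO-host tumours and 5688 to 7181 in WT-host tumours (log2 fold change 0.17), and Tyrobp 5294 to 5853 in KO-host tumours and 4445 to 6994 in WT-host tumours (log2 fold change -0.10). Per kilobase of exon, the order of the members also differed between the tissues. In KO fat it ran Clec3b, Clec2d, Clec7a, Clec4a3, Clec12a, Clec4d and Clec4a1, and in KO-host tumours Clec4a1, Clec2d, Clec4a3, Clec7a, Clec4n, Clec4d and Clec12a. Clec4n stood at 118 normalised reads per kilobase in KO fat and 74.6 in WT fat, against 648 in KO-host tumours and 609 in WT-host tumours. Clec12a stood at 1718 per kilobase in KO fat and 250.4 in WT fat, against 438 in KO-host tumours and 289 in WT-host tumours. Levels of fat and tumours are on separate scales and are given side by side only.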

How the data were processed

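RNA of 7 fat and 6 tumour libraries was measured by stranded mRNA sequencing. Per the labels' protocols, RNA was taken with Trizol and about 500 ng entered each library, made with an Illumina TruSeq stranded mRNA kit. The submitters' processing notes name CASAVA, TopHat, DESeq2 and the build mm10 without versions or roles. The counting tool, its annotation and its use of strand were not given in the sources used here.

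For the tumours the authors deposited raw read counts per gene symbol. Summary lines that name no gene were left out. They held 66.7% to 68.6% of the entries with KO hosts and 69.2% to 72.2% with WT hosts. Entries without a unique alignment alone made up 59.1% to 63.8%, and their effect on members of similar sequence was not tested. For fat the deposited values are a normalised signal, read counts divided by 1 factor per library, as all 117220 values above 0 (100%) were whole multiples (within 0.001) of their library's step. On the reads recovered so, edgeR called 4899 genes. Groups come from the titles. The WT fat columns are numbered 1, 3 and 4 while the titles number them 1 to 3, so these columns carry a group only. Fat was tested with limma 3.58.1 (trend) on log2(value + 1) for genes at 10 or more in at least 3 libraries, and the tumours with edgeR 4.0.16 (TMM, filterByExpr, quasi-likelihood), in R 4.3.3. Tumour levels are counts rescaled by TMM library size. Tests were two-sided, fitted across all genes, adjusted by Benjamini and Hochberg over all genes tested, at a threshold of 0.05, and the scripts were tested on simulated data. Alternatives were other pseudocounts (0.5 and 10), filters and scalings, edgeR on recovered fat reads, DESeq2 1.42.0 for the tumours, a replicate block and leaving out each library. Per-kilobase levels divide by the exon union of each gene in GENCODE M21, annotated on GRCm38 (the same assembly as mm10). Libraries of a group differed beyond sampling noise (chi-square per degree of freedom 24.2 to 235), so none was a copy of another in its group. This check cannot show whether libraries share an animal or its RNA. Depth sets counting error only, which limits what members under about 10 reads can show.

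By a written rule, values per library were given for members that passed in fat or had an adjusted p up to 0.1, and in the tumours for those with a mean of 50 or more and the 6 members of smallest p. Those of Clec4e, Clec4n, Clec2d and, in fat, Clec5a are outside this rule and were added after their values were seen. The members, gene lists, tests and this rule were chosen with earlier results of these data known.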

Additional observations from a re-analysis of the deposited data

Results flagged for a closer look

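Of 29 groups of 4 KO fat libraries looked at, 1 for each member, 2 had a library standing apart. The measure was Dixon's ratio of gap to range, above its 95% critical value for 4 samples. Chance alone marks about 1 in 20 groups of normally distributed values, which does not hold for members near 0. Clec2h and Clec3a were at 0 in all 4 KO libraries, so they had no ratio. For Clec4b1 the ratio was 0.844: KO library 1 had 964.8 normalised reads, against 512 to 583 in the other 3 KO libraries. The rise of Clec4b1 in KO fat kept its call without that library. For Clec18a the ratio was 1, because KO library 2 held a single read (1.08 normalised reads) and the other 3 held 0.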

How the results depend on the processing

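In fat 4947 genes passed in all libraries and 3065 to 5193 with 1 library left out, the lowest without WT column 3. The members called, 11 in all, numbered 6 to 11, with 6 without WT column 3 and 7 without KO 1 or KO 2. Clec12a, Clec7a, Clec4d, Clec4a2, Clec4b1 and Clec11a kept their calls under all 13 alternatives. The other called members lost theirs under some: Clec3b without WT column 3, Clec4a3 without KO 1, KO 2, KO 4 or WT column 3, Clec4a1 without any of 6 libraries and by edgeR on reads, Clec2i with no filter, and Clec2i and Clec14a without several libraries. Clec1a passed without KO 3 or WT column 4. With 1 library left out, log2 differences of members that had not passed changed sign within these ranges: Clec12b -0.23 to 0.51, Clec16a -0.19 to 0.017, Clec2d -0.10 to 0.29 and Clec4e -0.68 to 0.10. In the tumours 0 genes passed edgeR, 22 with no filter, 59 by DESeq2 and 0 to 21 with 1 library left out (21 without WT 3), and DESeq2 called 1 member. Ranges with 1 tumour library left out were -0.11 to 0.082 for Clec1a, -0.34 to 0.17 for Clec2d, -0.047 to 0.55 for Clec4a4, -0.41 to 0.21 for Clec4e, -0.10 to 0.29 for Clec4n and -0.044 to 0.20 for Clec7a. With the replicate block 0 tumour genes and 0 members passed. Deviations of same-numbered tumours from their group means correlated at r = -0.218, 0.0118 and -0.22. These values, from 3 libraries per host, cannot show whether the numbers pair libraries, and the labels do not say. No paired analysis was possible in fat because the WT columns carry no replicate number of the labels. In all, 214 of 245 values of members in fat and 145 of 160 in the tumours kept direction and side of the threshold, and the cause of the other changes was not tested. Depth limits the members under about 10 reads.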

Other observations

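Of the 10 members too low to test in fat, 2 lay higher and 2 lower in every KO library than in every WT library, close to the 21.6% and 22.1% of all genes tested that did so. Clec4a4 and Clec2e were higher in every KO fat library than in every WT fat library, at 8.17 to 16.1 and 6.62 to 10.1 normalised reads in KO fat and 3.91 to 6.88 and 0 to 6.19 in WT fat. Clec4g and Clec2l were lower in every KO fat library, at 1.82 to 4.42 and 2.02 to 6.36 in KO fat and 5.87 to 12.9 and 7.83 to 30.9 in WT fat. These values rest on at most about 30 reads each, and no test was made.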
